A study of Mus musculus with 2 samples.

Results

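The transcripts described here are 8 long RNAs that carry small RNAs in their primary transcript: Snhg1, Snhg5, Snhg6, Snhg8, Snhg9, Snhg12 and Gas5, which host small nucleolar RNAs, and Mir142hg, which hosts the microRNA miR-142. They were chosen by symbol, 8 of the 55357 genes in the deposited gene lists, and all 8 were found. Snhg9 and Mir142hg were picked because their level was lower in the SAP library, so for these 2 transcripts that difference is a description and supports nothing. The samples were 2 droplet libraries of mouse ileum T cells, titled Control and SAP, with 1 library per group. Per the series' design text, gut T cells of GF mice were co-cultured with dendritic cells that had first been exposed to phages, taken either from healthy or from SAP mice. The FucoID reaction, a proximity labelling method, then put a fucosyl-biotin tag on T cells in contact with the dendritic cells, so that they could be sorted from bystanders. All T cells of both groups were thus cultured with phage-treated dendritic cells, and no culture without phage is analysed here. The labels do not say whether a library holds tagged cells only, how many mice gave the T cells or the phages, their strain or age, or the culture time. With 1 library per group, phage source and library cannot be told apart, no test between the groups is possible and none is given.

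Small nucleolar RNAs guide chemical modification of ribosomal RNA. Those of the C/D class direct ribose methylation and those of the H/ACA class direct pseudouridylation. Most are cut from introns of a host transcript after splicing, and in the Snhg genes the spliced remainder is a long RNA with no known conserved protein product that is often degraded by nonsense-mediated decay. Many of these hosts begin with a terminal oligopyrimidine tract, the sequence at the start of ribosomal protein mRNAs that places their translation under control of growth signals, and Gas5 was named for accumulating in growth-arrested cells. miR-142 is a microRNA of blood cell lineages, T cells among them. The libraries were made from polyadenylated RNA, so the values below are of the long host RNAs, not of the small RNAs.

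By the small RNAs annotated on their own strand (GENCODE M21, mouse genome GRCm38, which is mm10), the hosts fall into 4 kinds. The C/D hosts are Gas5 (chr1:161034422-161038539, plus strand, 9 annotated snoRNAs including Snord47, Snord78 and Snord80), Snhg1 (chr19:8723475-8726443, plus strand, 8 including Snord22), Snhg5 (chr9:88521050-88522929, minus strand, Snord50a and Snord50b) and Snhg6 (chr1:9941959-9944118, minus strand, Snord87). The H/ACA hosts are Snhg8 (chr3:123507552-123508404, minus strand, Snora24) and Snhg9 (chr17:24719531-24719965, minus strand, Snora78). Snhg12 (chr4:132308623-132311024, plus strand) holds both classes, Snora16a, Snora44, Snora61 and Snord99. Mir142hg (chr11:87755577-87757270, plus strand) holds Mir142. In Snhg9, Snhg6 and Mir142hg the small RNA is intronic in every annotated transcript, and in the other 5 hosts at least 1 annotated transcript retains the intron as exon. Snhg9 is the shortest, with 183 exonic bases, and lies whole within the GENCODE span of the ribosomal protein gene Rps2 on the opposite strand. The RefSeq start of Rps2, at chr17:24720063 on the plus strand, lies beyond Snhg9, so from that start these genes do not overlap. Gas5 overlaps Zbtb37 and Snhg6 overlaps Mcmdc2, in both cases on the opposite strand. Whether counting used strand or introns is not given in the sources used here. Without strand, reads from the stretch where such a pair overlaps cannot be told apart.

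The start sites are shown because a pyrimidine tract there is the feature these hosts are known to share with ribosomal protein genes. RefSeq promoter entries (GRCm38.p6) were matched by symbol for 6 of the 8 hosts. Each line gives 60 bases, 30 before the annotated start and 30 from it, and capitals mark a run of a C followed by at least 4 C or T, searched on the gene's strand from 10 bases before to 10 bases after the start.
Snhg9, chr17:24719936-24719995, minus strand: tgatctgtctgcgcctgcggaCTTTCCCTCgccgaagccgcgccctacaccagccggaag
Snhg8, chr3:123508307-123508366, minus strand: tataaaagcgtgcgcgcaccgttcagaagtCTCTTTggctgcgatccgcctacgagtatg
Snhg12, chr4:132308648-132308707, plus strand: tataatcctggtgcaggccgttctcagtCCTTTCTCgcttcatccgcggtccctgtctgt
Snhg5, chr9:88522868-88522927, minus strand: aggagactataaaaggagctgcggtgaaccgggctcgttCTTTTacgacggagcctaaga
Gas5 at its downstream start, chr1:161035136-161035195, plus strand: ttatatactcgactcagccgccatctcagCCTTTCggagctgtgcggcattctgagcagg
Snhg1, chr19:8723457-8723516, plus strand: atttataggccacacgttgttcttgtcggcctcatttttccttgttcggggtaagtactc
A run was found for 5 of these 6 hosts, for Gas5 at the downstream of its 2 entries, and the Snhg1 window holds none by this definition. In Snhg8 the run begins at the annotated start itself, in Gas5 and Snhg12 it begins 1 and 2 bases before it, and in Snhg9 it begins 9 bases before it. Such a run is common: 30.7% of all 32851 promoter entries held it and 55.6% of the 81 entries of ribosomal protein genes. A run that begins exactly at the start was found in 2.51% of all entries and 21.0% of the ribosomal protein entries. A match is a description of the letters, and an annotated start can lie some bases from the one in use.

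The Mir142 hairpin in the intron of Mir142hg gives 2 mature microRNAs, shown because they are the product this host is known for, with the seed (bases 2 to 8) in capitals.
miR-142a-5p, chr11:87756867-87756887, plus strand: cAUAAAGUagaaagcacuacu
miR-142a-3p, chr11:87756903-87756925, plus strand: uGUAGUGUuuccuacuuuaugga

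Levels were summed over CD3 cells, the barcodes with at least 1 UMI (a counted molecule) of Cd3d, Cd3e or Cd3g that passed the filters. There were 5508 in Control with 18720354 UMIs and 4853 in SAP with 18497322 UMIs, 97.2% and 96.5% of passing barcodes, and 6 barcode sequences occurred in both libraries. All 10 T cell markers were present in both libraries, with summed levels of 7874 and 7502 UMIs per 1000000 UMIs (CPM). B and plasma cell markers, 6 of 7 present and Mzb1 at 0, summed to 791 CPM in Control against 28.2 CPM in SAP. The summed dendritic and myeloid markers (77.6 and 69.3 CPM) differed less, and so did the epithelial sum (138 and 133 CPM). Most of the epithelial sum was Epcam (73.2 and 70.7 CPM) and Cdh1 (52.4 and 49.7 CPM). Other epithelial markers went different ways: Krt8 had 46 UMIs in Control against 202 in SAP, Fabp1 71 against 8 and Fabp2 108 against 15. Vil1 had 3 against 11 UMIs and Krt19 2 in each library. A few very deep barcodes among the CD3 cells carried at least 2 UMIs of Folr1, a folate receptor gene, and few T cell transcripts, 220 and 162 CPM of T cell markers against 8024 and 7984 CPM in the other CD3 cells. They were 11 cells with 1.92% of the UMIs in Control and 36 cells with 6.16% in SAP, so many of the values below are also given without them. The effect of the B and plasma cell difference and of the epithelial marker differences on the host transcripts was not tested.

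Snhg9 and Mir142hg were the members with the lowest SAP over Control ratio, Snhg5 and Snhg12 were at or above 1, and the other 4 lay between 0.882 and 0.954. Each ratio below is of CPM in CD3 cells, with an exact binomial 95% interval that covers counting error only. The kit counts molecules from their 3′ end, so CPM was not divided by transcript length.

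Among the C/D hosts, Gas5 was the most abundant member, at 1057 CPM in Control against 937 in SAP (ratio 0.887, interval 0.869 to 0.905). Without the Folr1 cells the Gas5 ratio was 0.926 (0.907 to 0.945). Snhg1 stood at 350 CPM in Control against 315 in SAP (ratio 0.900, interval 0.869 to 0.933), and 0.939 without the Folr1 cells. Both were thus lower in SAP by more than counting error, with and without those cells, though by less than 1.2-fold. Snhg5 went the other way, with 71.5 CPM in Control against 78.8 in SAP (ratio 1.10, interval 1.02 to 1.19), and 1.15 without the Folr1 cells. Snhg6 had 63.5 CPM in Control against 60.6 in SAP (ratio 0.954, interval 0.879 to 1.04), and 0.994 without the Folr1 cells, so its difference was within counting error. The C/D hosts therefore did not share a direction.

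Among the H/ACA hosts, Snhg8 stood at 371 CPM in Control against 327 in SAP (ratio 0.882, interval 0.852 to 0.913), and 0.920 without the Folr1 cells. Snhg9 was the least abundant member, with 941 UMIs or 50.3 CPM in Control against 634 UMIs or 34.3 CPM in SAP. Its ratio was 0.682 (0.616 to 0.755), and 0.700 (0.632 to 0.776) without the Folr1 cells. Its UMIs were spread over 794 cells in Control and 564 in SAP, with at most 6 and 5 in 1 cell, so no single cell carried the difference. Snhg12, host of both classes, had 347 CPM in Control against 357 in SAP (ratio 1.03, interval 0.995 to 1.07), and 1.07 (1.04 to 1.11) without the Folr1 cells. The microRNA host Mir142hg had 1102 UMIs or 58.9 CPM in Control against 787 UMIs or 42.5 CPM in SAP. Its ratio was 0.723 (0.659 to 0.793), and 0.753 (0.687 to 0.826) without the Folr1 cells. In order of Control level, Gas5 stood alone, Snhg8, Snhg1 and Snhg12 lay within 1.1-fold of each other, and Snhg5, Snhg6, Mir142hg and Snhg9 followed.

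**Figure D1:**
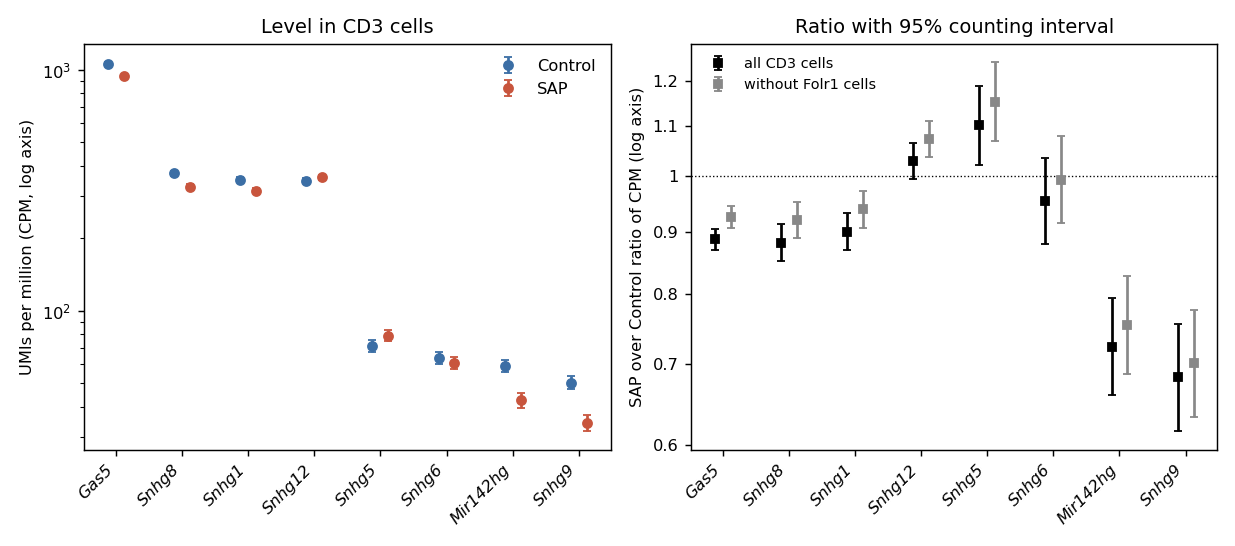
Left, level of each host transcript in CD3 cells of the Control (blue) and SAP (red) library in CPM on a log axis, with exact Poisson 95% intervals. Right, SAP over Control ratio of CPM on a log axis with exact 95% counting intervals, for all CD3 cells (black) and without the Folr1 cells (grey). Snhg9 (0.682) and Mir142hg (0.723) lie lowest, and Snhg12 (1.03) and Snhg5 (1.10) lie above 1.

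Over the 5674 genes with at least 20 CPM in 1 library and 50 UMIs in all, the median ratio was 1.03 and 85.5% lay within 1.2-fold. The interval lay below 1 for 5 of the 8 members, Gas5, Snhg1, Snhg8, Snhg9 and Mir142hg, against 14.2% of eligible genes. Of the 6 members not picked for their level, 3 were among these. It lay above 1 for Snhg5 alone, against 29.7% of eligible genes. Snhg9 and Mir142hg were at least 1.2-fold lower, against 2.36% of eligible genes, and their rule used this contrast, so nothing is read from that count. No member was 1.5-fold lower, against 0.106%, or 1.2-fold higher, against 12.1%. The same shares of genes without the Folr1 cells were 10.3% with an interval below 1, 28.5% above 1 and 1.47% at least 1.2-fold lower. There Snhg12 also had an interval above 1, so 5 members lay below and 2 above. The 6 members that were not picked for their level had a median ratio of 0.927, and 0.966 without the Folr1 cells, against medians of all eligible genes of 1.03 and 1.04. Of the eligible genes, 8 had a lower ratio than Snhg9 and 12 a lower ratio than Mir142hg, and 6 and 15 without the Folr1 cells. Scaling by TMM in place of total UMIs moved every log2 ratio by -0.11, which brought the median of eligible genes to 0.960. Under it Snhg12 stood below 1, at 0.957, Snhg5 was the only member above 1, and Gas5 and Snhg8 were also at least 1.2-fold lower, 4 members in all against 8.0% of eligible genes.

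**Figure D2:**
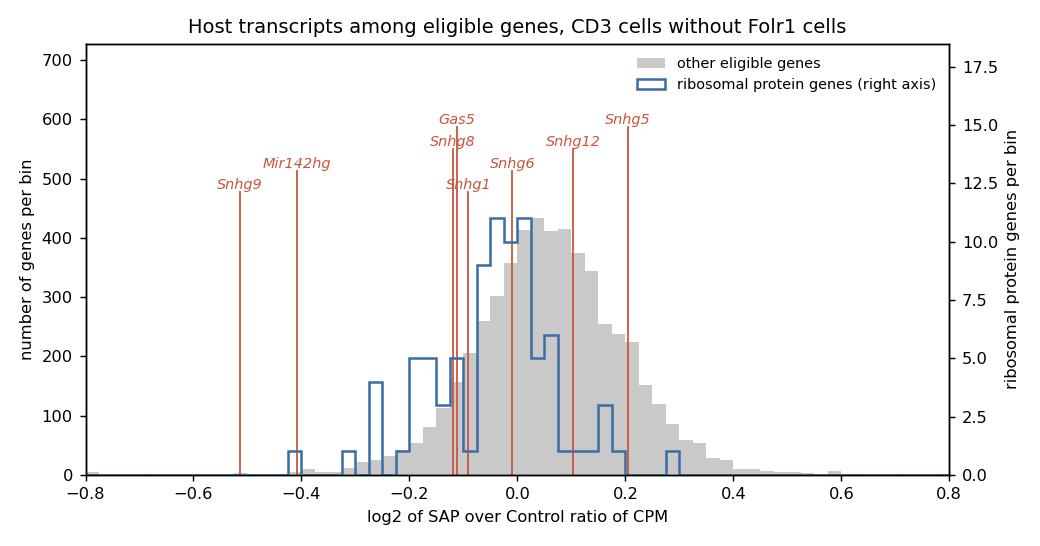
Number of genes (left axis, grey) and of ribosomal protein genes (right axis, blue outline) by log2 of the SAP over Control ratio of CPM, for the 5460 eligible genes of the CD3 cells without the Folr1 cells, with values beyond 0.8 on either side put in the end bins. Red lines mark the 8 host transcripts. Snhg9 and Mir142hg lie in the far left tail, Gas5, Snhg8 and Snhg1 at the left of the ribosomal protein genes' peak, and Snhg12 and Snhg5 to the right of it.

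Of the other small RNA hosts that were eligible, 6 of 8 had a ratio below 1. Of 24 symbols listed, 21 matched a gene and these 8 passed the minimum, with a median ratio of 0.934, and 0.973 without the Folr1 cells. The interval lay below 1 for 4 of the 8 and above 1 for 0 of 8, against 14.2% and 29.7% of all eligible genes. Without the Folr1 cells it lay below 1 for 3 and above 1 for 0, against 10.3% and 28.5%. With all CD3 cells Snhg20 was the lowest, at 33.5 CPM in Control against 27.1 CPM in SAP (0.809). The microRNA host Mir22hg followed at 0.834 and Zfas1 at 0.885. Mirt1 (1.08), Snhg16 (1.03) and Epb41l4aos (0.955) were the highest of this list. Of the microRNA hosts too low to be eligible, Mir155hg had 364 Control and 233 SAP UMIs (CPM ratio 0.648, interval 0.547 to 0.766). Mir181a-1hg had 115 and 59 UMIs, a CPM ratio of 0.519 (0.373 to 0.717). These 2 hosts were named after their values were seen.

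Genes that act on or with these RNAs had list medians near or above the 1.03 of all eligible genes. The proteins of box snoRNP particles, the enzymes and scaffolds that small nucleolar RNAs guide, had a median ratio of 1.07 over 9 eligible of 10 genes. Of these, 5 intervals lay above 1 and 0 below, against 29.7% and 14.2% of all eligible genes. Dkc1, the pseudouridine synthase, stood at 16.3 CPM in Control against 22.2 CPM in SAP (1.36). Fbl, the methyltransferase fibrillarin, followed at 1.27 and Nolc1 at 1.13, while Snu13 (0.987), Gar1 (1.02) and Nop10 (1.05) were the lowest. Without the Folr1 cells the median of this list was 1.06, Fbl stood at 1.13 and Dkc1 was too low to be eligible. There 3 of 8 intervals lay above 1 and 0 below, against 28.5% and 10.3% of all eligible genes. Over all CD3 cells, nonsense-mediated decay factors had a median of 1.06 over 8 eligible of 10. Of these, 2 intervals lay above 1 and 0 below, against 29.7% and 14.2% of all eligible genes. Smg5 (0.970) and Upf1 (1.03) were among the lower, and Upf3a (1.07), Smg6 (1.14) and the kinase Smg1 (1.16) the highest. Of the microRNA processing genes 4 of 8 were eligible, the nuclease Dicer1 at 1.16, Ago1 at 1.17, Ago3 at 1.0 and Ago2, the most abundant, at 0.931. Among nuclear long noncoding RNAs, 5 of 8 eligible with a median of 0.980, Gt(ROSA)26Sor was the lowest at 0.761, with Kcnq1ot1 (0.976) and Norad (0.980) near 1 and Malat1 (1.01) and Neat1 (1.10) at or above it.

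Summed Rpl and Rps UMIs, here with the ribosomal protein genes of other names such as Rack1 and Fau, made up 24.4% of UMIs in Control against 23.0% in SAP (ratio 0.942). Of 95 genes in this list 89 were eligible, with a median ratio of 0.965. Of these, 54 intervals lay below 1 and 23 above, against 14.2% and 29.7% of all eligible genes. Without the Folr1 cells 47 lay below 1 and 20 above over 86 eligible genes, against 10.3% and 28.5%. With all CD3 cells Rps28 (0.788) and Rpl38 (0.797) were among the lowest. Rps3a3 (3.20), Rpl6l (2.94) and Rpl39l (2.51) were the highest. Without the Folr1 cells these 3 were too low to be eligible. There Rps3a3 had a ratio of 0.859 (0.707 to 1.04), Rpl6l of 1.28 (0.968 to 1.70) and Rpl39l of 0.817 (0.684 to 0.974). Per 10000 ribosomal protein UMIs, Gas5 counted 43.3 in Control against 40.7 in SAP (ratio 0.942, interval 0.923 to 0.961). Snhg9 counted 2.06 in Control against 1.49 in SAP (ratio 0.724, interval 0.654 to 0.801), and Mir142hg 2.41 against 1.85 (ratio 0.767, interval 0.699 to 0.842). These 3 ratios without the Folr1 cells were 0.975 (0.955 to 0.995), 0.737 and 0.793. Of the other members, Snhg1 stood at 0.956 (0.922 to 0.990) and Snhg8 at 0.936 (0.904 to 0.969). Snhg6 stood at 1.01 (0.933 to 1.10), Snhg12 at 1.09 (1.06 to 1.13) and Snhg5 at 1.17 (1.09 to 1.26). Without the Folr1 cells the intervals of Snhg1 (0.954 to 1.02), Snhg8 (0.936 to 1.003) and Snhg6 (0.963 to 1.14) held 1. Snhg12 and Snhg5 then stood at 1.13 and 1.21. Setting the hosts against the ribosomal protein sum in place of all UMIs thus moved each ratio up by the same small factor. Other mRNAs known for a terminal oligopyrimidine tract had a median ratio of 1.05 over 15 of 15, and 1.03 without the Folr1 cells, from Eef2 (0.953), Naca (0.974) and Pabpc1 (0.980) to Ybx1 (1.14), Hnrnpa1 (1.15) and Eef1g (1.30). The intervals of these last 3 held 1 without the Folr1 cells, at 1.01, 1.0 and 1.03.

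Within each library the hosts differed widely in how they followed the ribosomal protein share of a cell. CD3 cells were ranked by that share and divided into 5 equal groups, and each host was expressed as CPM of the UMIs outside ribosomal protein and mitochondrial genes. The median share ran from 10.6% in the lowest to 33.9% in the highest group of Control and from 8.16% to 33.2% in SAP. The lowest group was shallow, with medians of 1352 and 1272 UMIs against 3521 and 3881 in the highest, and richer in mitochondrial UMIs, 2.60% and 3.76% against 1.15% and 1.38%. Values of the highest over the second group, which leave the lowest out, are therefore also given.

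The C/D hosts Gas5, Snhg1 and Snhg6 climbed steeply with the share. Gas5 stood at 757, 1047, 1215, 1581 and 2365 CPM from the lowest to the highest group in Control. In SAP it stood at 680, 834, 971, 1446 and 2182 CPM. The highest over the lowest group was 3.13 for Gas5 in Control and 3.21 in SAP, and 2.26 and 2.62 against the second group. Snhg1 showed 3.11 in Control and 3.51 in SAP, and Snhg6, from only 69 and 52 UMIs in the lowest group, 3.96 and 4.22. Against the second group they showed 2.53 and 2.70 for Snhg1 and 2.34 and 2.98 for Snhg6. The highest over the lowest group in Control and SAP without the Folr1 cells was 3.02 and 3.09 for Gas5, 3.0 and 3.38 for Snhg1 and 3.78 and 4.04 for Snhg6. Snhg5, with the same class of small RNA, differed less between the groups, at 1.01 in Control and 1.28 (1.03 to 1.59) in SAP, and 0.900 and 0.970 against the second group. Its SAP interval held 1 without the Folr1 cells, at 1.23 (0.990 to 1.53).

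The hosts with H/ACA RNAs followed the share less than those 3. Snhg12 showed 1.86 in Control and 1.58 in SAP, and Snhg8 1.60 and 1.57. Against the second group they showed 1.4 and 1.54 for Snhg12 and 1.62 and 1.90 for Snhg8. Snhg9 lay at 87.8, 61.0, 57.0, 64.4 and 78.8 CPM from the lowest to the highest group in Control and at 55.6, 34.7, 46.4, 45.2 and 52.4 CPM in SAP. The highest over the lowest group was 0.897 (0.726 to 1.11) and 0.942 (0.712 to 1.25), near the median of eligible genes of 0.898 and 0.895. Against the second group, however, Snhg9 stood at 1.29 (1.06 to 1.58) and 1.51 (1.17 to 1.95), so its value depended on the shallow group, and without the Folr1 cells at 1.27 (1.04 to 1.54) and 1.39 (1.08 to 1.79). Mir142hg was the only member lower in the highest group by more than counting error, at 0.741 (0.599 to 0.916) in Control, and in SAP its interval held 1, at 0.880 (0.682 to 1.14). Against the second group Mir142hg stood at 0.888 in Control and 1.31 in SAP, on both sides of 1, and the SAP interval held 1 without the Folr1 cells, at 1.19 (0.949 to 1.49). In all, 5 of 8 members in Control and 6 of 8 in SAP had an interval above 1, against 24.8% and 26.3% of eligible genes. An interval below 1 was found for 1 member in Control and 0 in SAP, against 39% and 39.7%. With the Folr1 cells left out 5 members in each library lay above 1, against 25.8% and 27% of eligible genes, and 1 and 0 below, against 38.7% in each library. For the highest over the second group 6 and 7 members lay above 1, against 23.7% and 25.2%, and without the Folr1 cells 6 in each library, against 24.7% and 24.6%.

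**Figure D3:**
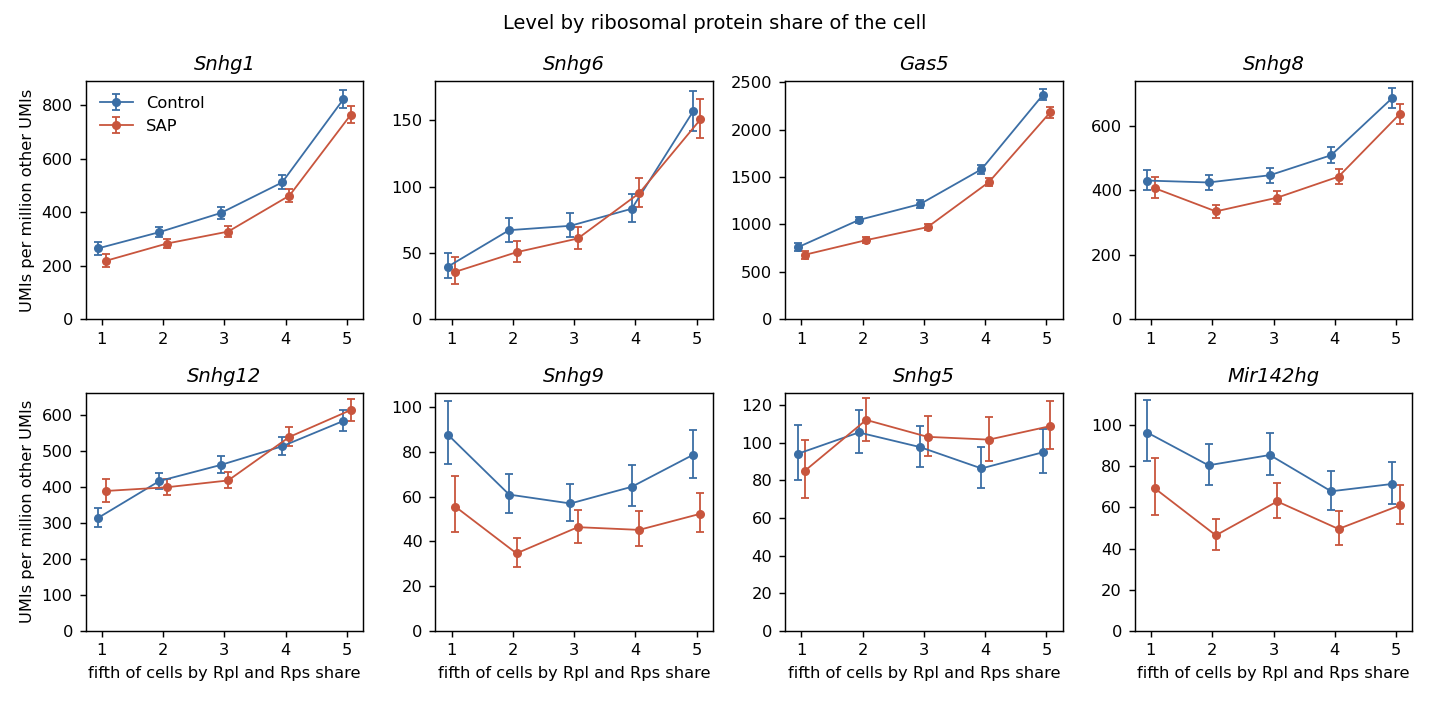
Level of each host transcript, in CPM of the UMIs outside ribosomal protein and mitochondrial genes, in 5 equal groups of CD3 cells ranked by the Rpl and Rps share of their UMIs (1 lowest, 5 highest), for Control (blue) and SAP (red), with exact Poisson 95% intervals. Snhg1, Snhg6 and Gas5 climb by 3.11 to 4.22 times from the first to the last group, Snhg8 and Snhg12 by 1.57 to 1.86 times, and Snhg9 and Mir142hg are highest in the lowest group of both libraries.

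The mRNAs with a known terminal oligopyrimidine tract gave a reference for this measure. Their median of the highest over the lowest group was 2.64 in Control and 3.15 in SAP. Intervals lay above 1 for 14 of 15 and 15 of 15 genes, against 24.8% and 26.3% of eligible genes. Values ran from Eif4b (1.13 in Control) to Eef1b2 (4.52 in Control and 5.72 in SAP). Gas5, Snhg1 and Snhg6 lay above that median in both libraries, while the other 5 members lay below it. The medians were 2.66 and 3.29 without the Folr1 cells, and Gas5 in SAP, at 3.09, then lay below. Against the second group the medians were 1.96 and 1.95, and 2.01 and 2.13 without the Folr1 cells. The other small RNA hosts also differed among themselves, with medians of 1.70 and 1.76. The interval lay above 1 for 5 of 8 in each library, against 24.8% and 26.3% of eligible genes. It lay below 1 for 2 of 8 in Control and 1 of 8 in SAP, against 39% and 39.7%. Without the Folr1 cells 4 of 8 and 5 of 8 lay above 1, against 25.8% and 27%. Against the second group, with all CD3 cells, 4 of 8 and 6 of 8 lay above 1, where 23.7% and 25.2% of eligible genes did. Snhg15 was the highest of them in Control (3.67) and Zfas1 in SAP (3.98), and Snhg20 (0.528 in Control) and Mir22hg (0.645 in SAP) were the lowest.

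Cells of both libraries were then put in common groups, so that SAP and Control were compared at a like ribosomal protein share, mitochondrial share or depth. Snhg9 and Mir142hg were picked for a lower level in SAP over these same cells. Their low ratios in most groups follow in part from that choice and support nothing. The median ratio of eligible genes lay between 0.992 and 1.03 in the groups by ribosomal protein share, and shares of genes per group were not computed. The Snhg9 ratio was below 1 in 5 of 5 groups by ribosomal protein share, from 0.525 to 0.833, with 4 intervals below 1. The Mir142hg ratio was below 1 in 5 of 5 as well, from 0.641 to 0.891, with 4 intervals below 1. Both were below 1 in 3 of 3 groups by mitochondrial share, at 0.634 to 0.684 for Snhg9 and 0.638 to 0.868 for Mir142hg, and in 3 of 3 groups by UMIs per cell. Gas5 and Snhg8 were also below 1 in 5 of 5 groups by ribosomal protein share, at 0.867 to 0.974 and 0.814 to 0.974, each with 4 intervals below 1. In the same groups 2 intervals for Gas5 and 3 for Snhg8 lay below 1 without the Folr1 cells. By mitochondrial share Snhg8 was below 1 in 3 of 3 groups, and Gas5 in 2 of 3, with 1.01 in the other. Snhg12 was above 1 in 4 of 5 of these groups and Snhg5 in 4 of 5.

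Cells were also assigned to gates by receptor UMIs: Trdc (the delta chain, 2436 Control and 2192 SAP cells), Cd8b1 without Trdc or Cd4 (558 and 553), Cd8a alone (1489 and 1223), Cd4 alone (186 and 165) and the 839 and 720 remaining cells. A gate rests on detected UMIs, so a cell can lack the UMI of a chain it expresses. The Folr1 cells held 24.4% of the UMIs of the remaining cells in SAP and 6.30% in Control. Ribosomal protein UMIs made up more of the Cd4 gate (31.3% in Control and 29.4% in SAP) than of the Trdc gate (23.3% and 21.8%).

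The Snhg9 ratio was below 1 in each gate, and whether gates differ from each other was not tested. Snhg9 was picked for a lower level in SAP over these same cells, so these ratios follow in part from that choice and support nothing. In the Trdc gate it had 48.9 CPM in Control against 35.8 in SAP (ratio 0.731, interval 0.630 to 0.848). In the Cd8a gate it had 51.2 and 30.3 CPM, a ratio of 0.591 (0.477 to 0.728). These 2 gates hold most of the cells, and in both the interval lay below 1. In the Cd8b1 gate it had 42.8 and 39.2 CPM, a ratio of 0.916 (0.667 to 1.26), so no difference was detectable at that depth of 84 and 82 UMIs. The Cd4 gate held only 30 Control and 17 SAP UMIs of Snhg9, a ratio of 0.625 (0.324 to 1.17). The remaining cells gave 0.555 (0.419 to 0.732), and 0.639 (0.478 to 0.848) without the Folr1 cells. In Control the gates ordered from 42.8 CPM in Cd4 and Cd8b1 to 61.9 CPM in the remaining cells, and the intervals of neighbours in that order overlapped.

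Among all CD3 cells Mir142hg was highest in the Trdc gate of both libraries, at 68.7 CPM in Control against 46.0 in SAP (ratio 0.670, interval 0.589 to 0.762). In the other named gates its Control level lay between 41.8 and 54.0 CPM. In SAP the Cd8a gate, at 45.1 CPM, was within counting error of the Trdc gate, and without the Folr1 cells the remaining cells were the highest, at 53.6 CPM. The ratio was 0.721 (0.511 to 1.01) in the Cd8b1 gate, 0.834 (0.693 to 1.002) in the Cd8a gate and 0.552 (0.276 to 1.06) in the Cd4 gate, the last from 30 and 15 UMIs. In the remaining cells it was 0.795, and 0.976 (0.740 to 1.29) without the Folr1 cells. The interval lay below 1 in the Trdc gate alone, which held the most Mir142hg UMIs, 601 in Control and 399 in SAP. Mir142hg was picked for a lower level in SAP over these same cells, so nothing is read from this. Whether gates differ from each other was not tested.

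Gas5 had 1023 CPM in Control against 938 CPM in SAP in the Trdc gate (0.916), 966 and 842 CPM in the Cd8a gate (0.872), and 1248 and 1106 CPM in the Cd4 gate (0.886), with intervals below 1. In the Cd8b1 gate it stood at 1179 and 1158 CPM, a ratio of 0.982 (0.927 to 1.04), and in the remaining cells the ratio was 0.725, and 0.899 without the Folr1 cells. The Snhg1 ratio was 0.924 in the Trdc gate, 0.921 in Cd8a (0.956 without the Folr1 cells, interval 0.887 to 1.03), 0.977 (0.887 to 1.08) in Cd8b1, and 0.680 in the remaining cells, where it was 0.844 without the Folr1 cells. In the Cd4 gate Snhg1 stood at 353 and 378 CPM, a ratio of 1.07 (0.891 to 1.28). Snhg12 was above 1 in the Trdc (1.07), Cd8a (1.06) and Cd4 (1.22) gates, and its intervals in the last 2 held 1. The Cd8a interval lay above 1 without the Folr1 cells, at 1.10 (1.03 to 1.18). Snhg5 had its largest difference in the Cd8b1 gate, with 102 UMIs or 52.0 CPM in Control against 178 UMIs or 85.1 CPM in SAP, a ratio of 1.64 (1.28 to 2.11). In the Trdc gate, which had 79.7 and 83.5 CPM of Snhg5, the ratio was 1.05 (0.944 to 1.17). At least 1.5-fold higher in the Cd8b1 gate were 5.61% of eligible genes, and 4.01% without the Folr1 cells, where Snhg5 stood at 1.70. Snhg8 was below 1 in 5 of 5 gates, from 0.781 to 0.937 with 4 intervals below 1, and from 0.903 to 0.968 with 2 such intervals without the Folr1 cells. Snhg6 had an interval below 1 in the remaining cells alone (0.708), and there it was 0.878 (0.683 to 1.13) without the Folr1 cells.

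Over the 8 members, the interval lay below 1 for 5 in the Trdc gate, 1 in Cd8b1, 4 in Cd8a, 1 in Cd4 and 6 in the remaining cells, against 7.9%, 7.81%, 7.5%, 4.72% and 19.3% of eligible genes. It lay above 1 for Snhg12 in the Trdc gate and for Snhg5 in the Cd8b1 and Cd8a gates, against 21.8%, 11.1% and 16.7%. It lay above 1 for 0 members in Cd4 and in the remaining cells, against 8.01% and 22.7%. The counts below 1 without the Folr1 cells were 5, 0, 3, 1 and 3 in the same order of gates, against 7.87%, 7.25%, 5.67%, 4.76% and 6.15%. Those above 1 were Snhg12 in Trdc, Snhg5 in Cd8b1 and both in Cd8a, 1, 1 and 2 members against 20.4%, 9.62% and 12.5%, and 0 in Cd4 and the remaining cells, against 7.97% and 9.79%. Snhg9 and Mir142hg were among those counted below, which the choice of members fixes in part.

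**Figure D4:**
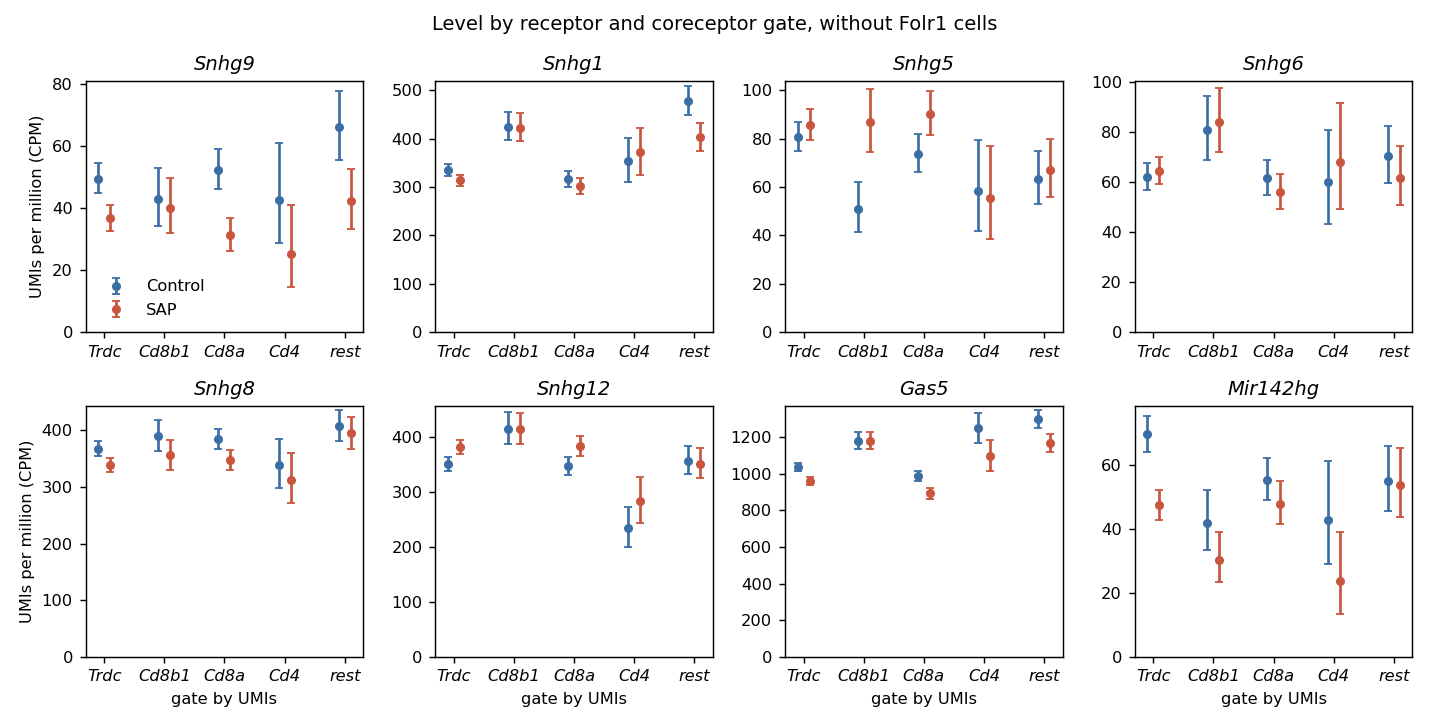
Level of each host transcript in CPM by gate on receptor UMIs (Trdc, Cd8b1, Cd8a, Cd4 and the rest of the CD3 cells), without the Folr1 cells, for Control (blue) and SAP (red), with exact Poisson 95% intervals. Snhg9, picked for a lower level in SAP, has its lower point in SAP in each gate. Mir142hg is highest in the Trdc gate of Control, and Snhg5 in the Cd8b1 gate lies at 51.1 CPM in Control against 87.0 CPM in SAP.

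Within a library, hosts also differed between Cd4 and Trdc cells. Gas5 was higher in the Cd4 gate, 1.22 times (1.14 to 1.31) the Trdc level in Control and 1.18 times (1.09 to 1.27) in SAP, and the interval of Snhg1 lay above 1 in SAP (1.23) but held 1 in Control (1.07). Above 1 were 12% of eligible genes in Control and 12.3% in SAP. The median ribosomal protein gene stood at 1.33 and 1.35. The median of eligible genes was itself below 1, at 0.874 in Control and 0.880 in SAP. Snhg12 stood at 0.673 (0.572 to 0.788) in Control and 0.764 (0.654 to 0.888) in SAP, with 25.9% and 35.9% of eligible genes lower still. Mir142hg stood at 0.622 and 0.513, with 21.3% and 14.4% lower still. Snhg5 stood at 0.733 (0.522 to 1.01) and 0.659 (0.455 to 0.925). The share of eligible genes with an interval below 1 was not computed. Snhg6 had intervals that held 1, at 0.977 (0.696 to 1.34) and 1.10 (0.790 to 1.5). Without the Folr1 cells Gas5 stood at 1.21 and 1.14, Snhg1 at 1.06 and 1.19 (1.03 to 1.36), Snhg12 at 0.666 and 0.741 and Mir142hg at 0.615 and 0.502, with 12.3% of eligible genes above 1 in Control and 13.1% in SAP.

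The 10 pools of a gate and a library gave a description of likeness, with no test, since pools of 1 library share its preparation. Across them the log2 level of Gas5 had the highest Pearson's r with summed ribosomal protein UMIs (r = 0.86). Snhg1 (r = 0.74) and Snhg6 (r = 0.47) came next, and Snhg8 (r = 0.09) and Snhg9 (r = 0.05) were near 0. Snhg5 (r = -0.63), Mir142hg (r = -0.53) and Snhg12 (r = -0.41) had negative values. These levels are CPM of all UMIs, ribosomal protein UMIs among them, so a larger ribosomal protein share by itself lowers the CPM of other genes. The r of eligible genes in general was not computed, so no trend is read from these values, positive or negative. Over the groups of cells, with ribosomal protein UMIs outside the total, Snhg12 rose with the share (1.86 in Control and 1.58 in SAP). The eligible genes most like Snhg9 were Bcl6, a transcriptional repressor (r = 0.93), Gm49602 (r = 0.90) and 6720427I07Rik (r = 0.89), and the same 3 genes led without the Folr1 cells. Most like Mir142hg were AI506816 (r = 0.95), Emc8 (r = 0.94) and Rab20 (r = 0.92), also the same 3 without the Folr1 cells. Most like Gas5 were the ribosomal protein genes Rpl36 and Rpl37a and the initiation factor Eif1, each at r = 0.96, while without the Folr1 cells Isg15, Igsf8 and Eif1 led. These are the highest of 5674 values over 10 pools each, and nothing more is read from them.

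The share of cells with a UMI followed the summed levels. For this, cells were reduced at random to 1000 UMIs, 397 Control and 381 SAP cells below that depth being dropped, and intervals are exact (Clopper-Pearson, 95%). Gas5 was seen in 60.7% of 5111 Control and 58.3% of 4472 SAP cells, Snhg8 in 30.1% and 28.1%, Snhg12 in 27.8% and 29.5%, and Snhg1 in 27.3% and 23.7%. Snhg9 was seen in 4.95% (4.37 to 5.58) of Control and 3.94% (3.38 to 4.55) of SAP cells, and Mir142hg in 6.22% (5.58 to 6.92) and 4.27% (3.70 to 4.91). Snhg5 was seen in 6.48% and 7.67% and Snhg6 in 5.89% and 5.25%. Unthinned, Snhg9 was seen in 14.4% of Control cells and 11.6% of SAP cells, Mir142hg in 15.8% and 12.7%, and Gas5 in 84.8% and 83.9%, at median depths of 3187 and 3484 UMIs. No cell type in these libraries is known to lack the hosts, so barcodes with no CD3 UMI served as the only comparison, 46 in Control and 54 in SAP after thinning. Snhg9 was seen in 0 of 46, which by the rule of 3 counts allows a share of up to 6.52% (the exact upper limit is 7.71%), and in 7.41% (2.06 to 17.9) of the 54, so its share in CD3 cells cannot be told from that in such barcodes. The same holds for Snhg5, Snhg6 and Mir142hg, while Snhg12 in Control was at 27.8% of CD3 cells against 6.52% (1.37 to 17.9) of the 46 barcodes.

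Neighbouring genes were compared because an overlapping or adjacent gene can share reads with a host. Rps2, whose GENCODE span covers Snhg9 on the other strand, stood at 2045 CPM in Control against 1939 in SAP (ratio 0.948, interval 0.935 to 0.962). Ndufb10, 2094 bases away on the strand of Snhg9, stood at 1.10 (1.04 to 1.17). Neither was as low as Snhg9. Both neighbours of Mir142hg were low on its own strand: Supt4a, an elongation factor gene 11953 bases upstream, had 534 CPM in Control against 422 in SAP (ratio 0.790, interval 0.767 to 0.814), and Tspoap1, 3270 bases downstream, had 23.9 and 17.8 CPM, a ratio of 0.745 (0.644 to 0.861). Whether reads past the ends of these genes enter the Mir142hg count was not tested. Zbtb37, which overlaps Gas5, was lower too, at 0.851 (0.755 to 0.958), and so was Slc3a2, 105 bases from Snhg1 on the other strand, at 0.943 (0.911 to 0.976). Wdr74, 9383 bases from Snhg1 on its strand, was higher, at 1.17 (1.03 to 1.34). Beside Snhg5, Syncrip stood at 1.12 (1.06 to 1.18), and beside Snhg12, Trnau1ap at 0.987 (0.892 to 1.09). The named neighbours of Gas5 and Mir142hg were thus on the same side of 1 as the host, while Snhg1 had 1 on either side. Of the neighbours of Snhg9, Rps2 was on its side and Ndufb10 was not. Without the Folr1 cells Rps2 stood at 0.989 (0.975 to 1.004), and for the other neighbours no such values are given. Of all eligible genes, 14.2% had an interval below 1 and 29.7% above 1.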

How the data were processed

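The data were 2 droplet libraries of mouse ileum T cells made, per the labels' protocols, with the version 3 Chromium kit for 3′ ends. The authors deposited raw UMI counts per gene and barcode, and per the file headers these came from Cell Ranger 7.1.0. Seurat and the build mm10 are named in the submitters' processing notes. Not given in the sources used here were filters before deposit, the annotation's version and the strand and intron settings. The libraries held 5737 (Control) and 5203 (SAP) barcodes with 19142384 and 19144320 UMIs.

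Barcodes were kept with at least 500 UMIs, 300 genes and at most 10% mitochondrial UMIs (5665 and 5028), and CD3 cells with at least 1 UMI of Cd3d, Cd3e or Cd3g. No doublets were removed in the main values. The deepest barcodes, 4.54% and 4.02%, were removed as an alternative. UMIs were summed per library and gate and divided by the summed total (CPM). Ratios carry exact conditional binomial 95% intervals, which cover counting error only. There was no test, since each group had 1 library. Genes counted as eligible had at least 20 CPM in 1 library and 50 UMIs over both. Likeness used log2(CPM + 1). The ribosomal list took Rpl and Rps symbols without pseudogenes and kinases, and Rps19bp1 and Rps23rg1, which encode other proteins, were left out. TMM (edgeR 4.0.16) and median-of-ratios (DESeq2 1.42.0) factors served as alternative scalings only.

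The 8 members and all gene lists were chosen with earlier results of these data known. The text names the members, the 3 highest and 3 lowest eligible genes of each list, neighbouring genes and the 3 most alike genes. Some genes that this rule takes in are not reported here. Leaving out cells with at least 2 Folr1 UMIs and comparing the highest with the second group were chosen after seeing the data. On simulated counts for the comparison of CD3 cells (55357 genes, 200 changed), 94.5% of intervals of the changed genes held the true ratio. Of genes changed 1.2-fold 92%, and of those changed 1.5-fold 100%, lay on the right side of 1. The counts were drawn with counting error alone, which these intervals assume. This checks the calculation and says nothing of variation between cells or libraries. Sequences are RefSeq's (GRCm38.p6), and loci are from GENCODE M21 by gene identifier.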

Additional observations from a re-analysis of the deposited data

Results flagged for a closer look

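Snhg12 lay on opposite sides of 1 in different gates. In the Trdc gate it had 347 CPM in Control against 373 in SAP (ratio 1.07, interval 1.02 to 1.13), and in the remaining CD3 cells 335 against 268 CPM (ratio 0.799, interval 0.719 to 0.888). The difference between the gates was not tested, since each gate has 1 library per group. Without the Folr1 cells, which held 24.4% of the UMIs of the remaining SAP cells, the ratio there was 0.984 (0.885 to 1.09), and that of the Trdc gate was 1.09 (1.03 to 1.14).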

How the results depend on the processing

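No paired analysis was possible because each group has 1 library and the titles carry no replicate number, and for the same reason no replicate could be left out. Over 12 alternatives each, the CD3 ratio of Snhg9 ranged from 0.633 to 0.758, of Mir142hg from 0.671 to 0.772, of Snhg5 from 1.02 to 1.22 and of Snhg6 from 0.886 to 1.01. Under TMM scaling the ratios were 0.836 for Snhg1, 0.819 for Snhg8, 0.957 for Snhg12 and 0.824 for Gas5, and under median-of-ratios scaling 0.849, 0.832, 0.972 and 0.837. Without the Folr1 cells they were 0.939, 0.920, 1.07 and 0.926. With the deepest barcodes removed Snhg1 stood at 0.935, Snhg8 at 0.914 and Gas5 at 0.929. With cells thinned to 1000 UMIs Snhg9 stood at 0.758, Snhg1 at 0.865, Snhg5 at 1.22, Snhg8 at 0.928, Snhg12 at 1.09 and Gas5 at 0.939. As means over cells Snhg8 was 0.920 and Gas5 0.927, and with at least 2 CD3 UMIs Gas5 was 0.908. The other 72 values stayed within the main interval. Of the gate ratios under alternatives, 135 stayed within the main interval, 16 moved out of it and 1 reversed. Of those by ribosomal protein share, 43 stayed, 35 moved out and 2 reversed. Reversed here means the other side of 1 from a main interval that left 1 out. In the gates, Snhg12 in the Trdc gate went to 0.997 under TMM. By ribosomal protein share Snhg5 in SAP went to 0.940 with all UMIs as denominator and to 0.970 against the second group. With 3 groups of cells in place of 5, Snhg6 in Control went from 3.96 to 2.27. Genes at least 1.2-fold lower and higher numbered 134 and 688, and 5447 and 10473 with no filter on low genes, 63 and 271 at 50 CPM, 454 and 395 under TMM, 341 and 428 under median-of-ratios scaling and 80 and 365 without the Folr1 cells. The lower share of these was 16.3% in the main counts, 53.5% under TMM and 44.3% under median of ratios. Counts of UMIs limit Snhg9 and Mir142hg most, with 30 or fewer in the Cd4 gate. Apart from the scalings, whose construction shifts every ratio alike, the cause of these changes was not tested.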
